A study of Homo sapiens with 36 samples.

Results

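The camptothecin response of SLFN11-proficient parent cells was compared between DU145, a human prostate carcinoma line, and CCRF-CEM, a human T-cell leukaemia line, after 6 h of exposure. The comparison used 12 of the 36 arrays of the series, 3 in each of 4 groups. These were DU145 parent cells with camptothecin (CPT, 250 nM) for 6 h, DU145 parent cells with treatment none, CCRF-CEM parent cells with CPT (250 nM) for 6 h, and CCRF-CEM parent cells with treatment none. The response of a line is the mean log2 signal of its CPT arrays minus that of its control arrays. The line difference is the DU145 response minus the CCRF-CEM response, so a positive value means a more positive response in DU145. Cells of both lines grew in RPMI1640 with 10% FBS. DMSO is named as the other addition to the medium, and the harvest time of the control cells is not given. Each line is a single culture line of its tissue, and the labels do not say whether the 3 arrays of a group came from separate cultures. The p-values therefore measure the spread between arrays within groups, estimated from all 36 arrays of the series. RNA was isolated with TRIzol, and 100 ng was labelled with the GeneChip WT Plus kit. Also used here are the same 2 lines labelled SLFN11 knockout, with CPT at the same dose and time and with treatment none, and the parent cells after 12 h of CPT. Whether the knockout cells are a clone or a pool is not given.

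Camptothecin traps topoisomerase I on DNA, which blocks replication forks and transcribing RNA polymerase. Cells answer with checkpoint signalling and with rapid transcription of immediate early genes such as EGR1, JUN and the NR4A receptors, which need no new protein synthesis to be switched on. DNA damage also signals to NF-kB, whose subunits drive their own inhibitors as feedback, and to ATF4 and CHOP, which run the program for amino acid and endoplasmic reticulum stress. SLFN11 is a Schlafen family protein that acts at stalled replication forks.

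Several promoters illustrate the regulatory elements that belong to these programs. They are shown because their genes differed between the lines and a search of the RefSeq windows (GRCh38.p14, 250 bases before to 50 after the start) found an element upstream of the start. Capitals mark the element, read on either strand. EGR1 (chr5:138465344-138465435, plus strand) holds a pair of serum response elements. BIRC3 (chr11:102317255-102317324, plus strand) and CCL20 (chr2:227813733-227813802, plus strand) hold an NF-kB element, searched as GGGNN followed by TTTCC or TTCCC. CHAC1 (chr15:40953232-40953299, plus strand) holds the composite C/EBP-ATF element searched as TGATGNAA.
EGR1: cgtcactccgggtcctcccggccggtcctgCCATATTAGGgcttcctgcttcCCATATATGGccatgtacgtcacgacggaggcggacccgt
BIRC3: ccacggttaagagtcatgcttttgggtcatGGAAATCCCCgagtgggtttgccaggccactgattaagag
CCL20: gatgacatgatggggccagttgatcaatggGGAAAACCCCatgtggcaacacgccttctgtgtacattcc
CHAC1: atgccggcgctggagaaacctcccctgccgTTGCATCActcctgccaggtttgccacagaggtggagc
The response of EGR1 and BIRC3 was larger in CCRF-CEM, and that of CCL20 and CHAC1 was larger in DU145.

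The line labels were checked against marker lists. The mean log2 signal of 10 epithelial genes lay between 9.09 and 9.16 with CPT and between 9.11 and 9.24 in controls of DU145, and between 6.29 and 6.35 with CPT and between 6.23 and 6.47 in controls of CCRF-CEM. The mean of 11 T-lineage genes lay between 6.00 and 6.54 with CPT and between 6.08 and 6.29 in controls of DU145, and between 10.56 and 10.66 with CPT and between 10.94 and 11.03 in controls of CCRF-CEM. Across these lists and those of B, myeloid, fibroblast and endothelial cells, 1 of 5 B-lineage genes passed the test of the line difference, and the part of other cell types in the results was not tested. Array medians lay between 4.78 and 4.86 and lower quartiles between 2.96 and 3.04, so a gene near 3 in a line gave little or no signal there. Replicate arrays correlated at 0.979 to 0.987. The number of arrays limits the precision, and in bulk RNA a change in the share of cells and a change in RNA per cell cannot be told apart.

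Tests used limma over 22260 genes with Benjamini-Hochberg adjustment, and a gene is called at an adjusted p below 0.05. In DU145, 2652 genes (11.9% of those tested) were called, 1548 higher (6.95%) and 1104 lower (4.96%). In CCRF-CEM, 2670 genes (12% of those tested) were called, 1643 higher (7.38%) and 1027 lower (4.61%). The line difference was called for 1175 genes (5.28%), 579 higher (2.6%) and 596 lower (2.68%), and 438 of them (1.97% of those tested) differed by at least 2-fold. Responses of at least 2-fold were called for 416 genes in DU145 (1.87%) and 434 in CCRF-CEM (1.95%). The count of 1175 line differences was 645 without the third CPT array of CCRF-CEM and 308 when only the 12 arrays compared were fitted. Of the 1175 calls 49.3% were higher. That share was 7.13% when the arrays were aligned on the median of 23 housekeeping genes (the housekeeping shift) and 39.7% after cyclic loess. The housekeeping shift moved line differences by a median of -0.27 (log2), and their median over all genes was then -0.23. Counts under it stand beside those of the gene lists. For the named genes with a called line difference its sign was the same under both scalings. Smaller positive differences that were not called could turn negative under the housekeeping shift.

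Part of the response was shared. Of the genes that rose, 620 rose in both lines, which is 40.1% of the DU145 list and 37.7% of the CCRF-CEM list. Of the genes that fell, 323 fell in both, which is 29.3% and 31.5% of those lists. Together they are 943 genes (4.24% of those tested). For 573 of the shared rising genes and 290 of the shared falling genes the line difference was not called. Such a miss does not show equal responses, and the interval of the difference is given for the genes named here.

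The largest shared rise was that of ATF3, a stress-induced repressor of the ATF family. ATF3 had log2 signals of 10.11, 9.96 and 9.86 with CPT and 4.66, 5.34 and 5.25 in controls of DU145. Its CCRF-CEM arrays read 10.13, 10.00 and 9.95 with CPT and 6.00, 6.02 and 6.13 in controls. The CPT arrays of both lines lay within the same range and far above every control array. The line difference of ATF3 was 0.92 ± 0.35 (SE, limma adjusted p = 0.128, 95% interval 0.20 to 1.63). PPP1R15A, which directs dephosphorylation of eIF2α, rose by 2.34 in DU145 and by 2.46 in CCRF-CEM, with a line difference of -0.12 (interval -0.60 to 0.36). JUNB, a partner of FOS in AP-1, rose by 1.79 and by 1.94, with a line difference of -0.15 (interval -0.58 to 0.28). Among the shared falls were the genes of chromatin remodeler subunit ARID1B (-2.12 in DU145 and -1.40 in CCRF-CEM) and of the calcium-dependent kinase CAMK1D (-1.61 and -1.53).

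**Figure D1:**
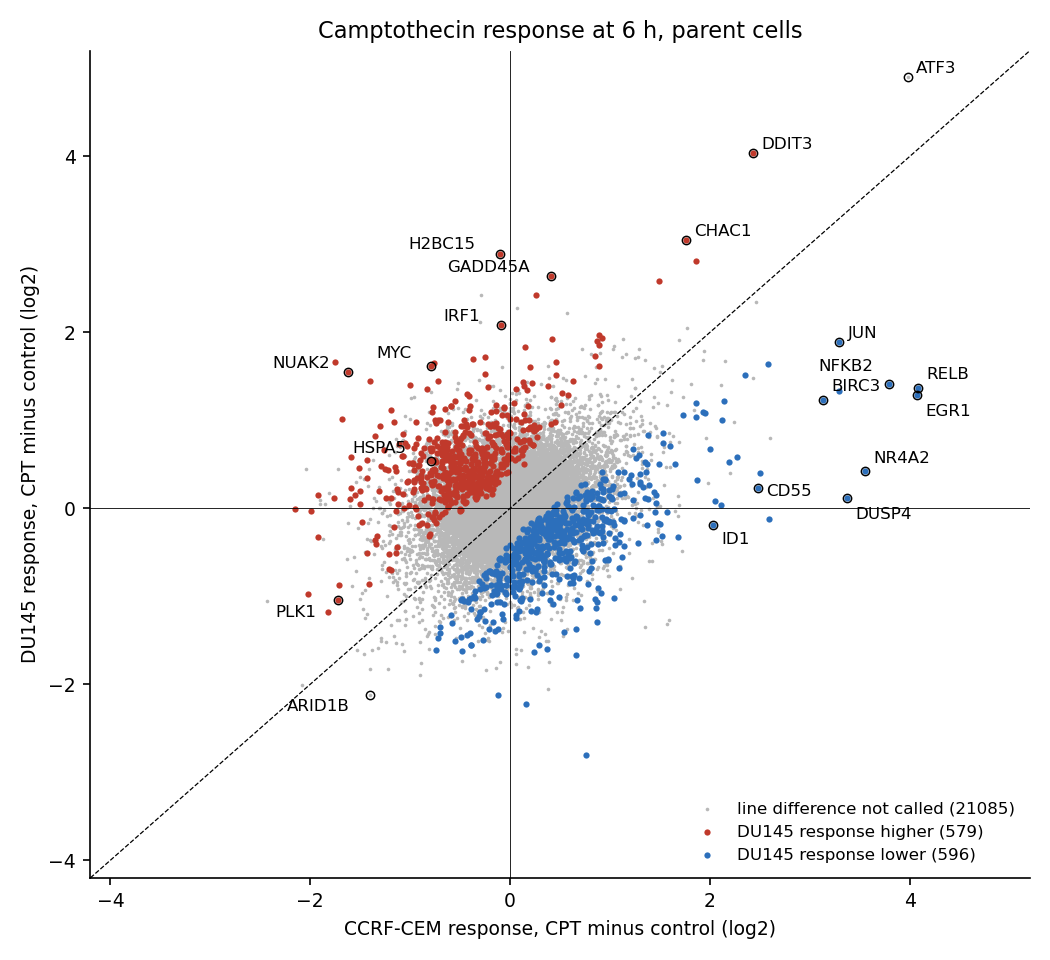
The log2 response of DU145 (vertical axis) is plotted against that of CCRF-CEM (horizontal axis) for 22260 genes, with the 579 genes called higher in red, the 596 called lower in blue and the dashed line marking equal responses. EGR1, RELB, NFKB2, NR4A2 and DUSP4 lie far right with small or moderate values on the vertical axis, while MYC, NUAK2 and HSPA5 lie in the upper left, where DU145 rose and CCRF-CEM fell.

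Many immediate early genes rose in both lines. Of 57 immediate early regulators measured, 27 rose in DU145, and 25 rose and 4 fell in CCRF-CEM. The line difference was called higher for 9 and lower for 11, against 2.6% and 2.68% of all genes. The median line difference of the list was 0.10, against 0.04 over all genes. It was -0.17 after the housekeeping shift and 0.00 after cyclic loess, against -0.23 and -0.01 over all genes. The list as a whole therefore had no settled direction. The calls were 3 higher and 14 lower after the housekeeping shift, 9 and 13 after cyclic loess, and 5 and 9 without the third CPT array of CCRF-CEM.

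EGR1, a zinc finger factor induced by growth and stress signals, had log2 signals of 11.93, 11.62 and 11.74 with CPT and 10.69, 10.42 and 10.32 in controls of DU145. The CCRF-CEM signals were 9.94, 9.90 and 9.95 with CPT and 6.02, 5.24 and 6.31 in controls. The groups did not overlap in either line, and the CCRF-CEM controls stood far below all other arrays; groups without overlap occurred for 27.6% of all genes in DU145 and for 29.5% in CCRF-CEM. EGR1 rose by 1.28 in DU145 and by 4.07 in CCRF-CEM, a line difference of -2.79 ± 0.29 (limma adjusted p = 1.05e-06).

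NR4A2, an orphan nuclear receptor, had 7.92, 7.62 and 7.72 with CPT and 7.20, 7.50 and 7.29 in controls of DU145. In CCRF-CEM it had 8.10, 8.12 and 8.01 with CPT and 4.67, 4.62 and 4.29 in controls. The DU145 arrays and the CPT arrays of CCRF-CEM lay close together, with the CCRF-CEM controls alone at the bottom. The DU145 response of 0.42 did not pass (adjusted p = 0.227) and CCRF-CEM rose by 3.55, a line difference of -3.13 ± 0.30 (adjusted p = 1.66e-07). Its relative NR4A3 had responses of 0.67 (not called) in DU145 and 2.00 in CCRF-CEM.

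DUSP4, a nuclear phosphatase that switches off MAP kinases, had 7.43, 7.50 and 7.86 with CPT and 7.54, 7.23 and 7.68 in controls of DU145. Signals in CCRF-CEM were 6.30, 7.05 and 6.80 with CPT and 3.25, 2.73 and 4.05 in controls. The DU145 groups overlapped, and the CCRF-CEM controls were near the lower quartile of the arrays, where the size of a change is uncertain. The line difference was -3.26 ± 0.52 (adjusted p = 0.000375). DUSP10, which acts on JNK and p38, rose by 1.34 in DU145 and by 3.30 in CCRF-CEM with a control mean of 7.11 in both lines, a line difference of -1.96 ± 0.24 (adjusted p = 1.26e-05).

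JUN, the AP-1 subunit, rose by 1.89 in DU145 and by 3.29 in CCRF-CEM, and its CPT arrays lay between 10.65 and 10.69 in DU145 and between 10.52 and 10.80 in CCRF-CEM. ID1, an inhibitor of basic helix-loop-helix factors, had a response of -0.20 (not called) in DU145 and rose by 2.03 in CCRF-CEM, a line difference of -2.23 ± 0.24. SGK1 (a kinase induced by serum), IER3, DUSP1 and ZFP36L1 (an RNA-decay factor) also had called line differences, of -1.66, -1.11, -0.87 and -0.82.

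MYC, the growth-promoting transcription factor, had the opposite sign of difference. It had 10.58, 10.90 and 10.72 with CPT and 9.29, 9.05 and 9.03 in controls of DU145. In CCRF-CEM the values were 9.24, 9.31 and 9.11 with CPT and 10.12, 10.09 and 9.84 in controls. No groups overlapped, and CPT arrays were the higher ones in DU145 and the lower ones in CCRF-CEM. MYC rose by 1.61 in DU145 and fell by 0.79 in CCRF-CEM, a line difference of 2.41 ± 0.19 (limma adjusted p = 1.19e-08). All 7 MYC probe sets had a positive line difference. Other immediate early genes with a more positive response in DU145 were HBEGF, a ligand of the EGF receptor (1.25), KLF2 (1.24), ZFP36L2 (1.22), MAFF (1.14) and DUSP6, a phosphatase of ERK (0.92), all by called line differences. DUSP6 rose by 0.44 in DU145 and fell by 0.47 in CCRF-CEM. After the housekeeping shift KLF2 (0.97), MAFF (0.88) and DUSP6 (0.65) were no longer called, and the calls of NR4A3, DUSP1, KLF2 and MAFF were lost when single arrays were left out.

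**Figure D2:**
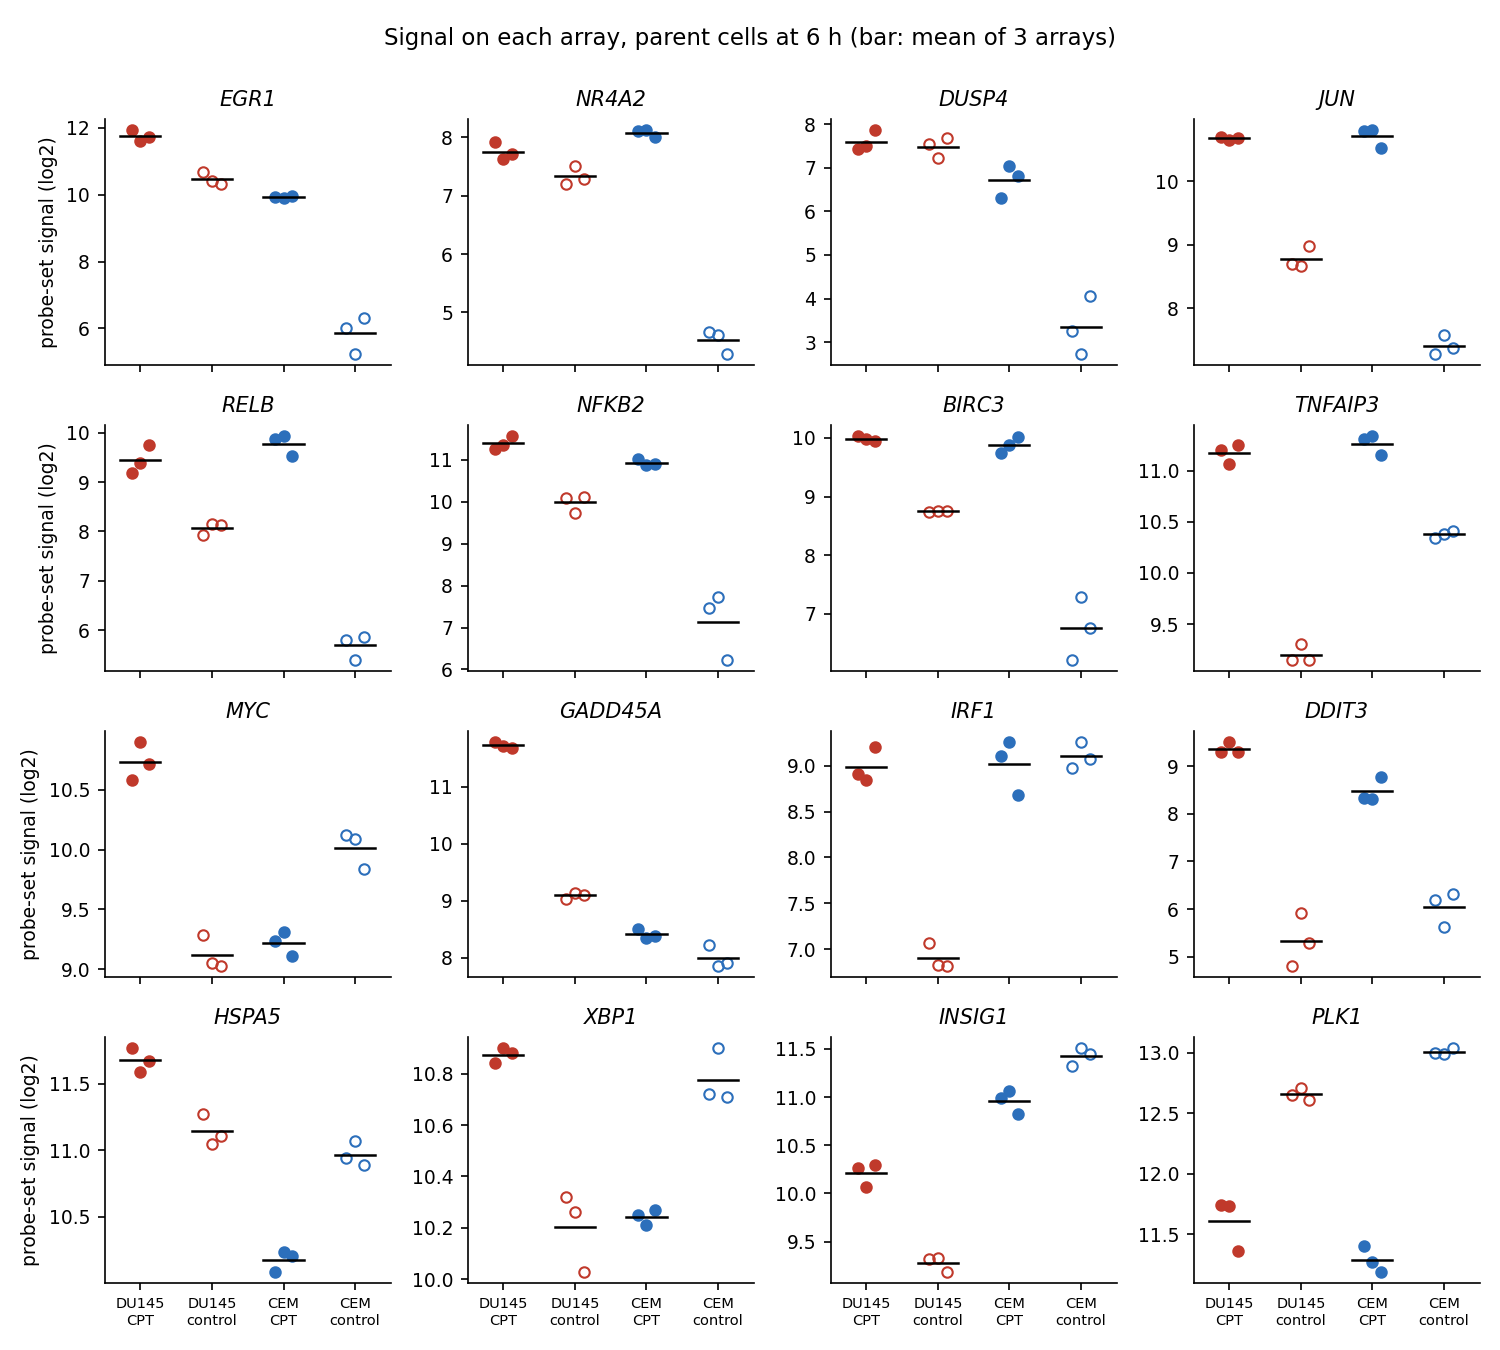
Each panel shows 1 gene, with the log2 probe-set signal of the 3 arrays of each group as points and their mean as a bar; DU145 is red, CCRF-CEM blue, CPT filled and control open, and each panel has its own vertical scale. For EGR1, NR4A2 and RELB the CCRF-CEM controls stand alone at the bottom, and for MYC, HSPA5, XBP1 and INSIG1 the CPT points lie above the controls in DU145 and below them in CCRF-CEM.

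The NF-kB subunit genes had larger responses in CCRF-CEM. Of 5 subunit genes, 4 rose in DU145 and 5 in CCRF-CEM, and 4 had a line difference called lower, against 2.68% of all genes. The median line difference of the 5 was -0.89, and it was -1.16 after the housekeeping shift and -0.93 after cyclic loess.

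RELB, the subunit of the non-canonical pathway, had 9.19, 9.38 and 9.74 with CPT and 7.93, 8.14 and 8.13 in controls of DU145. Its CCRF-CEM arrays read 9.88, 9.93 and 9.52 with CPT and 5.81, 5.40 and 5.87 in controls. The CPT arrays of the lines lay together, and the controls were apart. RELB rose by 1.37 in DU145 and by 4.08 in CCRF-CEM, a line difference of -2.71 ± 0.34 (limma adjusted p = 1.14e-05). Of the 16 RELB probe sets 12 had a negative line difference, with a median of -0.71 over all of them. When tested singly, 2 were called lower and 0 higher. NFKB2, whose p52 product pairs with RELB, rose by 1.41 in DU145 and by 3.79 in CCRF-CEM, a line difference of -2.38 ± 0.31. REL had a line difference of -0.89 and NFKB1 of -0.79, both called, and RELA of -0.19, not called.

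Among 22 NF-kB inhibitors and regulators, 8 rose in DU145 and 12 in CCRF-CEM, against 6.95% and 7.38% of all genes. For these 22 genes 4 line differences were called lower and 1 higher, against 2.68% and 2.6% of all genes. After the housekeeping shift 6 were lower and 1 higher. BIRC3, a ubiquitin ligase of the TNF receptor complex, had 10.03, 9.98 and 9.95 with CPT and 8.74, 8.76 and 8.76 in controls of DU145. The CCRF-CEM signals were 9.75, 9.88 and 10.02 with CPT and 6.22, 7.29 and 6.76 in controls. The CPT arrays of the lines lay together, and the line difference was -1.89 ± 0.26 (adjusted p = 4.37e-05). BCL3, an atypical IkB protein, had a line difference of -1.31, the deubiquitinase CYLD one of -0.86, and NFKBIA, the classical inhibitor, one of -0.66. The exception was TNFAIP3 (A20), which rose by 1.97 in DU145 and by 0.89 in CCRF-CEM, a line difference of 1.09 ± 0.12 (adjusted p = 1.08e-06).

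Among cytokine, surface and other target genes of NF-kB the called differences went both ways. Of 37 measured, 8 rose in DU145 and 6 in CCRF-CEM, and 3 line differences were called higher and 2 lower, against 2.6% and 2.68% of all genes. These were 1 higher and 3 lower after the housekeeping shift and after cyclic loess, and 1 and 1 without the third CPT array of CCRF-CEM. CCL20, a chemokine, rose by 2.43 in DU145 and had a response of 0.25 (not called) in CCRF-CEM, a line difference of 2.17 ± 0.45 that was not called when only the 12 arrays compared were fitted. CXCL8 (interleukin-8) rose by 1.64 in DU145 and by 2.58 in CCRF-CEM, and IL23A had a response of 0.41 (not called) in DU145 and rose by 2.50 in CCRF-CEM. CD83 and SOD2, the mitochondrial superoxide dismutase, had called line differences of 0.72 and 0.59, which were 0.46 and 0.33 and not called after the housekeeping shift. The calls of CXCL8, NFKBIA, CD83 and SOD2 were lost when single arrays were left out.

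IRF1, an interferon-response factor, rose in DU145 into the range of the CCRF-CEM arrays. It had 8.91, 8.85 and 9.20 with CPT and 7.07, 6.83 and 6.82 in controls of DU145. In CCRF-CEM it had 9.11, 9.26 and 8.68 with CPT and 8.98, 9.26 and 9.07 in controls. The CCRF-CEM groups overlapped. Its line difference was 2.17 ± 0.25 (limma adjusted p = 3.00e-06). Of 35 interferon-stimulated genes, 2 had a line difference called higher (IRF1 and IFIT2) and 2 lower (IFITM2 and IFITM3). Over all genes 2.6% and 2.68% were called, so these few calls do not set the list apart. After the housekeeping shift 2 were higher and 3 lower. The calls of IFIT2, IFITM2 and IFITM3 were lost when single arrays were left out.

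Many genes of the ATF4 and CHOP stress program rose in both lines, with the called differences mostly toward DU145. Of 44 members, 21 rose and 1 fell in DU145, and 20 rose and 1 fell in CCRF-CEM. Over all genes 6.95% rose in DU145 and 7.38% in CCRF-CEM. Among them 9 line differences were called higher and 3 lower, against 2.6% and 2.68% of all genes. The median was 0.17, against 0.04 over all genes. After the housekeeping shift the median was -0.10, against -0.23 over all genes, and 3 were called higher and 5 lower. Cyclic loess gave 8 higher and 3 lower, with a median of 0.16, against -0.01 over all genes. The sign of the list median therefore depended on the scaling, while it stayed above the median of all genes.

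DDIT3, which encodes CHOP, had 9.29, 9.51 and 9.31 with CPT and 4.81, 5.91 and 5.29 in controls of DU145. Signals in CCRF-CEM were 8.34, 8.31 and 8.78 with CPT and 6.18, 5.62 and 6.32 in controls. DDIT3 rose by 4.04 in DU145 and by 2.44 in CCRF-CEM, a line difference of 1.60 ± 0.39 (limma adjusted p = 0.0134). Of the 9 DDIT3 probe sets 6 had a positive line difference, with a median of 0.57, and of those tested singly 1 was called higher and 1 lower. The call was lost with the mean of all probe sets (0.46) and with only the 12 arrays compared. CHAC1, a CHOP target that degrades glutathione, rose by 3.05 and by 1.76, a line difference of 1.29 ± 0.23 (adjusted p = 0.00119). ASNS (asparagine synthetase) and SESN2 (a leucine sensor) differed by 0.88 and 1.10, and PHGDH, the first enzyme of serine synthesis, by 0.93. Toward CCRF-CEM lay SLC7A11, the cystine transporter (-0.93), ATF5 (-0.78) and the pseudokinase TRIB3 (-0.56). After the housekeeping shift ASNS (0.61) and SESN2 (0.83) were no longer called. Without the third CPT array of CCRF-CEM the calls of SESN2, SLC7A11 and TRIB3 were lost, and without the third CPT array of DU145 that of ASNS.

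Endoplasmic reticulum chaperones serve the folding of secreted and membrane proteins. The list of 20 measured genes also holds the stress regulators XBP1 and ATF6 and the degradation component HERPUD1. Of these 20, 6 rose and 2 fell in DU145, and 1 rose and 8 fell in CCRF-CEM. After the housekeeping shift 3 rose and 2 fell in DU145, and 2 rose and 3 fell in CCRF-CEM. In the line difference 7 were called higher and 1 lower, against 2.6% and 2.68% of all genes, with a median of 0.33. Under that shift 4 were higher and 1 lower with a median of 0.06, and after cyclic loess 8 were higher and 1 lower with a median of 0.34.

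HSPA5 (BiP), the main chaperone of that compartment, had 11.77, 11.59 and 11.67 with CPT and 11.27, 11.05 and 11.11 in controls of DU145. In CCRF-CEM the values were 10.09, 10.24 and 10.21 with CPT and 10.94, 11.07 and 10.89 in controls. Controls of the lines lay close together, and CPT arrays moved apart from them on opposite sides. HSPA5 rose by 0.54 in DU145 and fell by 0.79 in CCRF-CEM, a line difference of 1.33 ± 0.14 (limma adjusted p = 7.76e-07), and all 10 of its probe sets had a positive one.

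XBP1, the transcription factor of the unfolded protein response, rose by 0.67 in DU145 and fell by 0.53 in CCRF-CEM. MANF, a secreted folding factor, rose by 0.54 in DU145 and fell by 0.44 in CCRF-CEM. HERPUD1, a component of protein degradation at that membrane, rose by 1.43 in DU145 and had a response of 0.22 (not called) in CCRF-CEM. PDIA4, SDF2L1 and CALR completed the 7, with line differences of 0.65, 0.87 and 0.46 that were 0.39, 0.60 and 0.19 and not called after the housekeeping shift, and the stress sensor ATF6, which fell by 0.66 in DU145, had one of -0.67. INSIG1, which retains the sterol sensor in that membrane, rose by 0.93 in DU145 and fell by 0.47 in CCRF-CEM, a line difference of 1.40 ± 0.15 (adjusted p = 1.05e-06). Of 19 sterol synthesis genes 3 were called higher (INSIG1, HMGCS1 and PMVK) and 1 lower (TM7SF2), against 2.6% and 2.68% of all genes. After the housekeeping shift 1 was higher and 1 lower. With the mean of all probe sets TM7SF2 was 0.2.

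Responses called with opposite signs were few. In all, 73 genes (0.328% of those tested) passed in both lines with opposite signs and in the line difference, and the count was 44 without the third CPT array of CCRF-CEM. DU145 rose and CCRF-CEM fell for 40 of them, and the reverse held for 33. The first set included NUAK2, a kinase of the AMPK family, with 10.57, 10.69 and 10.67 with CPT and 8.85, 9.23 and 9.21 in controls of DU145. Its CCRF-CEM arrays read 3.66, 3.63 and 3.94 with CPT and 5.52, 5.24 and 5.36 in controls, a low signal that approached the lower quartile of the arrays. The line difference of NUAK2 was 3.17 ± 0.38 (limma adjusted p = 7.22e-06). BCL2A1, an anti-apoptotic BCL2 relative, rose by 1.16 in DU145 and fell by 0.59 in CCRF-CEM, and CCND3 (cyclin D3) rose by 0.42 and fell by 0.42. In the second set PALLD, an actin-binding protein, fell by 0.77 in DU145 and rose by 0.62 in CCRF-CEM, and NSD1, a histone H3 methyltransferase, fell by 0.80 and rose by 0.63.

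Most other line differences came with a call in 1 line. Of the 579 called higher, 207 passed as higher in DU145 and not in CCRF-CEM, 210 as lower in CCRF-CEM and not in DU145, and 92 in neither line. Of the 596 called lower, 243 passed as higher in CCRF-CEM and not in DU145, 217 as lower in DU145 and not in CCRF-CEM, and 53 in neither. GADD45A, a growth arrest gene of the DNA damage response, rose in both lines to very different extents. It had 11.79, 11.72 and 11.69 with CPT and 9.03, 9.14 and 9.11 in controls of DU145. The CCRF-CEM signals were 8.51, 8.34 and 8.38 with CPT and 8.23, 7.86 and 7.90 in controls. The line difference was 2.23 ± 0.18 (limma adjusted p = 1.39e-08). CDKN1A (p21), the other leading arrest gene, rose by 1.48 in DU145 and by 2.43 in CCRF-CEM without a called difference (-0.95, interval -1.55 to -0.34). The CDKN1A difference was called after the housekeeping shift (-1.21) and cyclic loess (-1.06). Of its 10 probe sets, however, 5 had a negative line difference, the median was 0.02, and 0 were called when tested singly.

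CD55, a surface regulator of complement, had 12.76, 12.73 and 12.76 with CPT and 12.35, 12.59 and 12.62 in controls of DU145. In CCRF-CEM it had 10.61, 10.58 and 10.78 with CPT and 8.11, 8.10 and 8.33 in controls. The DU145 response of 0.23 was not called, CCRF-CEM rose by 2.48, and the line difference was -2.24 ± 0.14 (limma adjusted p = 3.56e-11). RGS1, a regulator of G-protein signalling, rose by 2.05 in CCRF-CEM, and its signal in DU145 was between 2.04 and 2.92 on all 6 arrays, below the lower quartile. SLC7A3, the cationic amino acid transporter with the largest negative line difference (-3.56 ± 0.88), had CPT values of 2.27, 5.32 and 2.30 in DU145. Its call was lost without the first or the third of those arrays. ENTPD1, with the largest positive one (3.42 ± 0.91), was called for 0 of its 21 probe sets when these were tested singly, and neither line's own response passed. Its call was also lost under the replicate block, with only the 12 arrays compared and with any of 6 single arrays left out. Other large line differences were those of GPC3, a cell-surface proteoglycan (2.69), and RTN4RL2 (2.17), and of MYO1E, an unconventional myosin (-2.16), and the monocarboxylate transporter relative SLC16A6 (-2.03). The calls of MYO1E and SLC16A6 were lost with only the 12 arrays compared.

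Mitotic genes fell in both lines. Of 38 G2/M and mitosis genes, 23 fell in DU145 and 23 in CCRF-CEM, against 4.96% and 4.61% of all genes. After the housekeeping shift 24 and 14 fell. Here 5 line differences were called higher and 1 lower, against 2.6% and 2.68% of all genes. The median of 0.07 was -0.20 after the housekeeping shift, with 1 higher and 2 lower, against medians of 0.04 and -0.23 over all genes. PLK1, the polo kinase of mitotic entry, had 11.74, 11.73 and 11.36 with CPT and 12.65, 12.71 and 12.61 in controls of DU145. Signals in CCRF-CEM were 11.40, 11.27 and 11.19 with CPT, and its 3 controls lay between 12.99 and 13.04. PLK1 fell by 1.05 in DU145 and by 1.72 in CCRF-CEM, a line difference of 0.67 ± 0.14 (limma adjusted p = 0.00543), which was 0.41 and not called after the housekeeping shift. The kinesin KIF20A (0.94), the centromeric histone CENPA (0.72), BIRC5 (0.56) and CDC20 (0.50) also had called line differences, of which that of KIF20A was called after the housekeeping shift. The kinesin KIF11 fell by 0.53 in DU145 and had a response of -0.05 (not called) in CCRF-CEM.

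Of 50 DNA replication genes, 21 rose in DU145 and 17 in CCRF-CEM, or 12 and 25 after the housekeeping shift. Here 2 line differences were called higher (FEN1 and TIMELESS) and 2 lower (ORC5 and GINS1), against 1 and 5 after the housekeeping shift. Over all genes 2.6% were called higher and 2.68% lower, so these few calls do not set the list apart. The other lists of this paragraph are read against the same shares. Of 25 replication-dependent histone genes measured, 5 rose and 3 fell in DU145, 7 rose in CCRF-CEM, and 5 line differences were called lower and 1 higher, or 9 and 1 after the housekeeping shift. H2BC14 fell by 1.50 in DU145 and had a response of -0.27 (not called) in CCRF-CEM, and the linker histone H1-5 fell by 1.37 and had -0.21 (not called). H2BC15 was the higher one and rose by 2.90 in DU145. Its CCRF-CEM means were 3.15 with CPT and 3.25 in controls, near the lower quartile of the arrays. These histone genes are near-identical copies, so signal may be shared between their probe sets. Of 25 nucleolar ribosome biogenesis genes, 12 rose in DU145 and 4 in CCRF-CEM, or 4 and 5 after the housekeeping shift. In this list 5 line differences were called higher, against 0 after the housekeeping shift and 1 without the third CPT array of CCRF-CEM. Of 14 topoisomerase and TOP1-lesion repair genes, 0 had a line difference called by limma, and 5 had an unadjusted p below 0.05, 2 higher and 3 lower, against 4292 of all 22260 genes. In this list 3 were called lower after the housekeeping shift and 1 higher after cyclic loess.

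**Figure D3:**
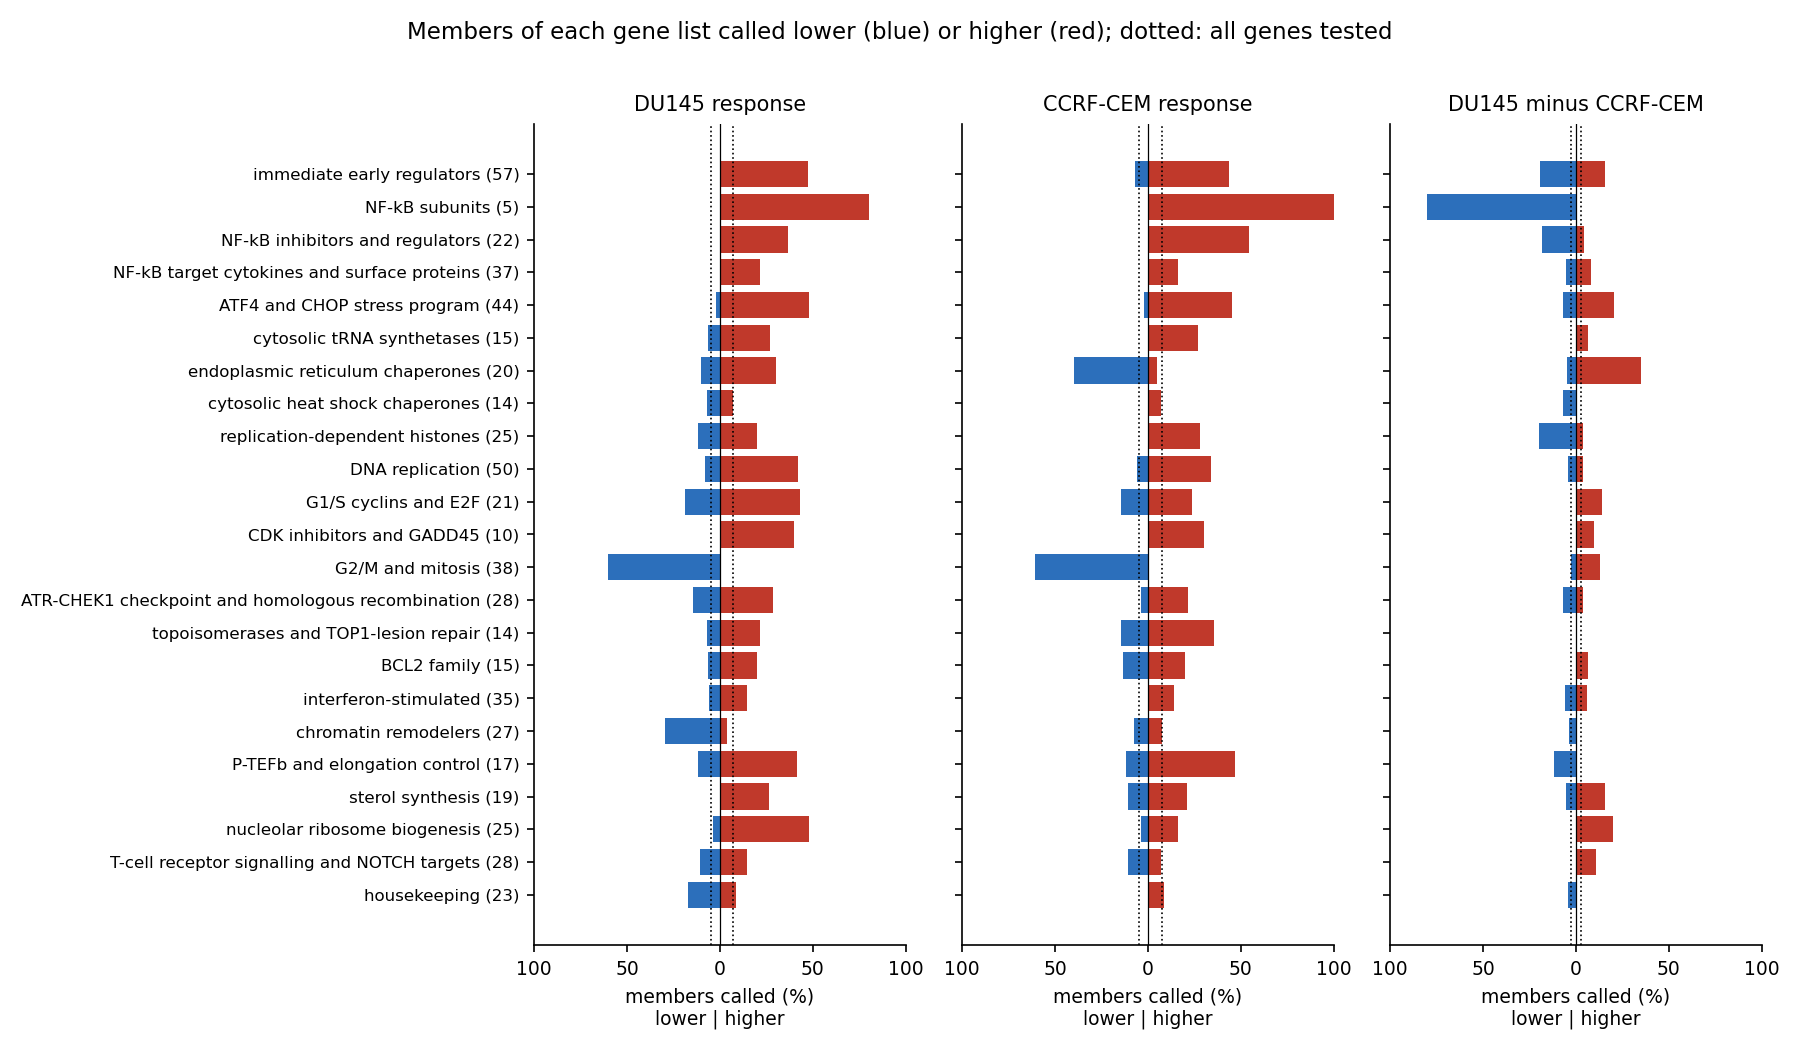
For 23 gene lists, with the number of members measured in brackets, bars give the percentage of members called higher (red, to the right) and lower (blue, to the left) in the DU145 response, the CCRF-CEM response and their difference, and dotted lines mark the percentages over all genes tested. In the difference the NF-kB subunits stand out to the left and the endoplasmic reticulum chaperone list, which also holds stress regulators, to the right. Of the 38 mitotic genes 23 fell in each line, or 24 in DU145 and 14 in CCRF-CEM after the housekeeping shift.

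Gene span, which the comparison did not use, was then compared with the calls. Spans were taken from RefSeq for 22195 genes. Of genes under 10 kb, 1.29% fell in DU145 and 2.59% in CCRF-CEM. Of the 1942 genes of 100 to 200 kb, 18.4% fell in DU145 and 10% in CCRF-CEM, and of the 1388 genes of 200 kb or more, 21.5% and 16.1% fell. The median responses did not follow these shares in the longest class. They were -0.16 in DU145 and -0.10 in CCRF-CEM at 100 to 200 kb, and -0.19 and -0.25 at 200 kb or more. The median line difference was -0.08 and 0.01 in these classes. Counts by span after the housekeeping shift are not given here. The share of genes with a line difference called lower was 1.16% under 10 kb, 7.11% at 100 to 200 kb and 5.76% at 200 kb or more. The share called higher was between 2.03% and 3.16% in all 5 classes of span. Of 27 chromatin remodeler genes 8 fell in DU145 and 2 in CCRF-CEM, against 4.96% and 4.61% of all genes. After the housekeeping shift 7 and 1 fell. CHD9 fell by 0.84 in DU145 and had a response of 0.09 (not called) in CCRF-CEM.

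**Figure D4:**
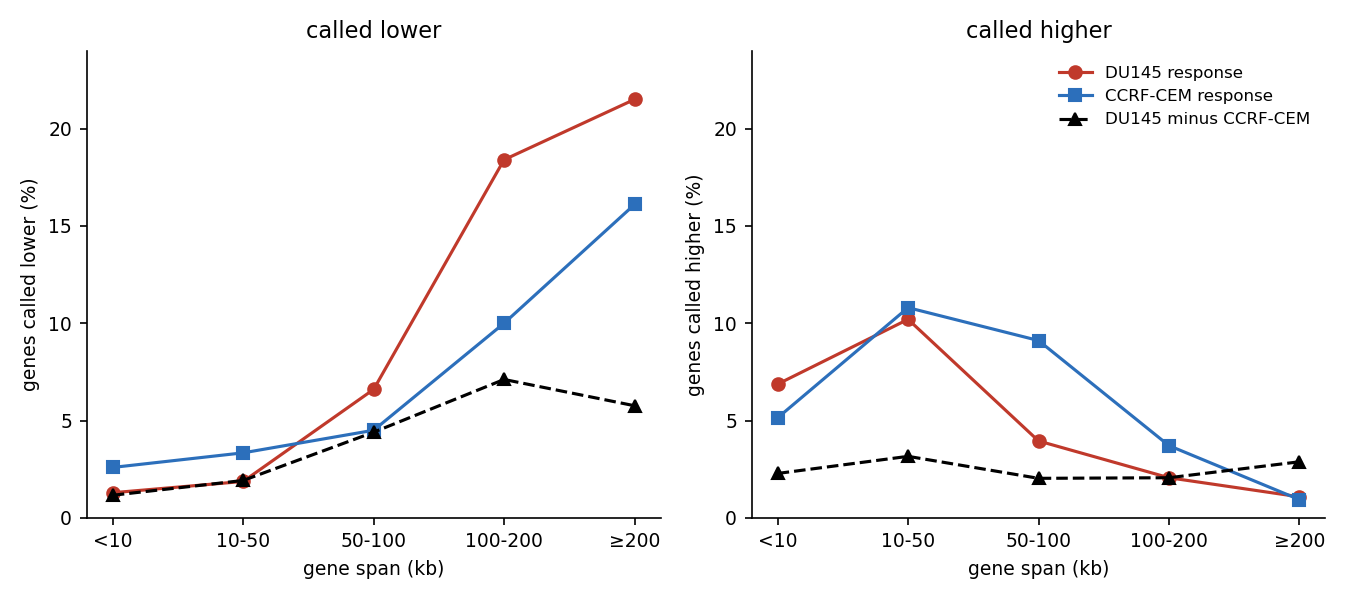
The percentage of genes called lower (left) and higher (right) is plotted by class of gene span in kb for the DU145 response (red circles), the CCRF-CEM response (blue squares) and their difference (black triangles). Between the shortest and the longest class the share that fell was 1.29% and 21.5% in DU145, and 2.59% and 16.1% in CCRF-CEM. The median response of the longest class was -0.19 in DU145 and -0.25 in CCRF-CEM.

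The remaining lists are read against 2.6% of all genes called higher and 2.68% called lower in the line difference. Of 21 G1/S cyclin and E2F genes 3 were called higher, against 1 higher and 2 lower after the housekeeping shift and 1 higher without the third CPT array of CCRF-CEM. Of 28 genes of T-cell receptor signalling and NOTCH targets 3 were called higher, against 2 after the shift. Of 10 CDK inhibitors and GADD45 genes 1 was called higher, with 1 higher and 1 lower after the shift. Among 15 BCL2 family genes 1 (BCL2A1) was higher, also after the shift, and among 15 cytosolic tRNA synthetases 1 was higher, against 1 lower after the shift and 0 without that array. Of 28 checkpoint and homologous recombination genes 1 was called higher and 2 lower, against 4 lower after the shift and 0 without that array. Of 17 genes of P-TEFb and elongation control 2 were called lower, or 3 after the shift. Of 14 cytosolic heat shock chaperones 1 was called lower, or 2 after the shift. Of the 23 housekeeping genes used for the shift 1 was called lower, or 4 after it, and 2 rose and 4 fell in DU145 against 2 that rose in CCRF-CEM.

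Promoter windows were available for 14553 protein-coding genes. An NF-kB element was present in 4.35% of all windows, in 7.08% of the 240 windows of genes that rose in CCRF-CEM with a line difference called lower, and in 5.66% of the 212 windows of genes that rose in DU145 with one called higher. A cyclic AMP response element (TGACGTCA) was present in 2.61% of all windows and in 5.83% and 4.25% of these sets. An AP-1 element (TGANTCA) was present in 5.66% of all windows and in 6.67% and 3.77% of these sets. The C/EBP-ATF element was present in 2.51% of all windows and in 1.67% and 3.77% of these sets, and the serum response element in 1.23%, 1.25% and 1.89%. Both strands were searched, and neighbouring elements may share letters. These shares describe letters in a window and carry no test.

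Control levels also differed between the lines for several leading genes. Among the 30 genes that rose in both lines with a line difference called lower, the median gap between the lines in mean signal was 0.72 with CPT and 1.28 in controls, and the gap was smaller with CPT for 19. Over all genes the gap was smaller with CPT for 47.6%, with medians of 0.40 with CPT and 0.36 in controls. For the 596 genes called lower it was smaller for 52.2%, with medians of 0.71 with CPT and 0.70 in controls, and for the 57 immediate early regulators it was smaller for 40.4%, with medians of 1.35 with CPT and 1.01 in controls. The 30 genes were chosen by the same arrays, so these values are a description.

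The same line difference was then measured in cells labelled SLFN11 knockout, which share no array with the parent comparison but share its estimate of spread. SLFN11 signal was 8.95, 9.01 and 9.39 with CPT and 8.35, 8.69 and 8.63 in controls of DU145 parent cells, and 9.27, 9.28 and 9.40 with CPT and 9.24, 9.44 and 9.76 in controls of CCRF-CEM parent cells. In the arrays labelled knockout it lay between 8.92 and 9.18 with CPT and between 8.72 and 9.18 in controls of DU145, and between 10.03 and 10.16 with CPT and between 9.76 and 9.86 in controls of CCRF-CEM. The DU145 arrays labelled knockout lay within the range of the DU145 parent arrays. The edited position is not given, so this signal does not check the label. In parent cells SLFN11 rose by 0.56 in DU145 and had a response of -0.17 (not called) in CCRF-CEM, a line difference of 0.73 ± 0.21 (limma adjusted p = 0.0408) that was not called after the housekeeping shift (0.46) or cyclic loess (0.67). All 11 SLFN11 probe sets had a positive line difference, with a median of 0.62. When tested singly 1 was called, and the one that stood for the gene was not (limma adjusted p = 0.122).

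In cells labelled knockout the DU145 response was called for 2439 genes (11% of those tested), which is 6.92% rising and 4.04% falling, and 264 genes (1.19%) changed by at least 2-fold. The CCRF-CEM response was called for 1446 (6.5%), which is 3.95% rising and 2.54% falling, and 198 genes (0.889%) changed by at least 2-fold. Their line difference was called for 461 genes (2.07%), 207 higher (0.93%) and 254 lower (1.14%), with 161 (0.723%) of at least 2-fold. The count was 266 without the first DU145 CPT array of these cells. Of the 461, 131 were called with the same sign in parent cells, which is 11.1% of the parent list and 28.4% of the knockout list, and 5 with the opposite sign. The knockout line difference was above 0 for 74.4% of the genes higher in the parent comparison, for 24.8% of those lower, and for 50.8% of all genes. The medians were 0.22, -0.25 and 0.01. Called in both were CCND3, with a line difference of 0.84 in parent cells and 1.02 in cells labelled knockout, KIF20A with 0.94 and 1.16, and PALLD with -1.39 and -0.96.

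Whether the line difference itself differed between parent and labelled knockout cells was tested as a contrast of all 8 groups, which called 118 genes (0.53% of those tested), 0.211% with a positive and 0.319% with a negative value, and 97 (0.436%) passed 2-fold. The count was 78 without the third CPT array of DU145 parent cells. Among the 118 were 31 of the 579 and 48 of the 596. The contrast contains the parent line difference that selected those genes, so this overlap is in part built in. The parent value minus the knockout value was -3.19 ± 0.42 for NR4A2 (limma adjusted p = 0.000247), -2.09 ± 0.41 for EGR1 (0.013) and -1.75 ± 0.19 for CD55 (2.72e-05). In cells labelled knockout NR4A2 had responses of 0.50 in DU145 and 0.44 in CCRF-CEM, and EGR1 of -0.04 and 0.67, none of them called. The value was 1.97 ± 0.27 for MYC (0.000398), 2.17 ± 0.26 for GADD45A (5.78e-05), 1.50 ± 0.21 for INSIG1 (0.000401), 1.13 ± 0.19 for HSPA5 (0.00318) and 1.39 ± 0.23 for HERPUD1 (0.00226). MYC had responses of 0.24 in DU145 and -0.20 in CCRF-CEM in cells labelled knockout, neither called. For RELB (-1.60, 0.125) and NFKB2 (-1.65, 0.0856) the contrast did not pass, and for BIRC3 it was -0.58 (0.558). Of the 57 immediate early regulators 9 passed, 3 higher and 6 lower. Of the 20 genes in the list of endoplasmic reticulum chaperones 3 passed, all higher.

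**Figure D5:**
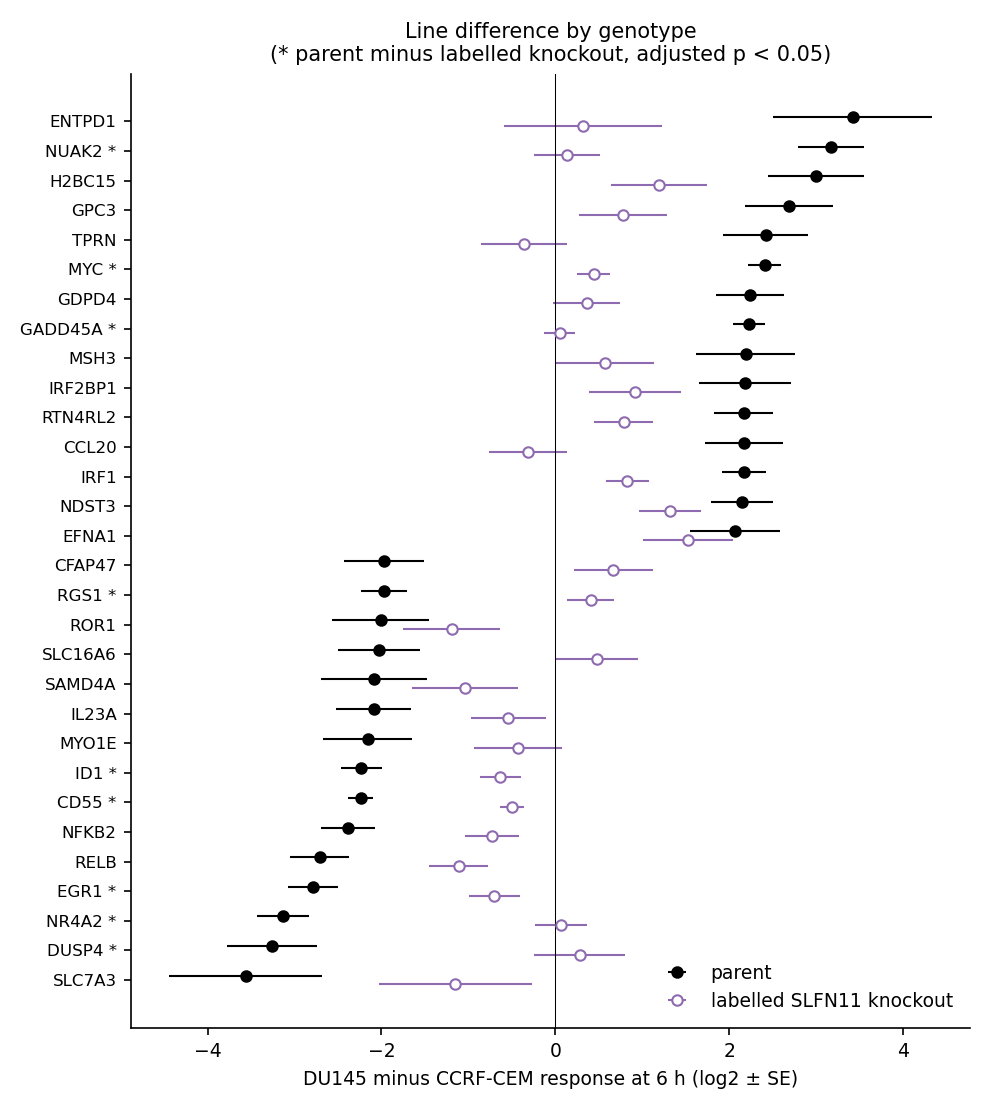
The line difference in response (log2, with its standard error) is shown for the 30 genes with the largest called values in parent cells (filled black) and for the same genes in cells labelled SLFN11 knockout (open violet), with an asterisk where the parent minus knockout contrast passed. NR4A2, DUSP4, GADD45A and NUAK2 lie near 0 in cells labelled knockout, and EFNA1 and NDST3 lie nearer their parent values.

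The 12 h arrays share their controls with the 6 h arrays, so values are given side by side without a comparison. At 12 h in parent cells EGR1 had responses of 0.72 in DU145 and 5.03 in CCRF-CEM, NR4A2 of 0.75 and 4.88, and RELB of 1.07 and 4.64. MYC had 0.87 and -1.84, HSPA5 0.37 and -0.62, and GADD45A 2.22 and 1.00. DDIT3 had 3.16 and 2.98, a line difference of 0.18 (limma adjusted p = 0.849), and KIF20A had -0.80 and -1.14.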

How the data were processed

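Expression was measured on 36 microarrays of total RNA (100 ng), in 12 groups of 3. The authors deposited log2 probe-set signals, made by RMA in Partek per the submitters' processing notes. Versions and the genome build were not given in the sources used here. All values were used as deposited; 0 columns were left unused.

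Of 352859 probe sets, 259224 carried 1 gene symbol, 13116 several and 80519 none. Symbols were updated through RefSeq (GRCh38.p14), and the probe set of highest mean over all arrays stood for a gene, which gave 22260 genes, 17902 of them protein coding. A single limma 3.58.1 fit (lmFit and eBayes, R 4.3.3) of all 36 arrays and 12 groups left 24 residual degrees of freedom, with no replicate block. Contrasts were adjusted by Benjamini-Hochberg over all genes. The fit was checked on data simulated with independent noise for each gene and array. That check holds no array-wide shift or outlying array and cannot show their effect. SE is limma's moderated standard error, and Python 3.11.15 with pandas 2.3.3, numpy 2.4.6 and matplotlib 3.10.9 made counts and figures.

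Genes were named by rule: the 15 largest called line differences in each direction with a group mean of at least 6 and no overlap of arrays in at least 1 line, the 6 of each orientation with opposite responses, the 6 shared in each direction, and the extremes of the 23 pathway lists. Not all genes the rule gives are printed, and other list members named were chosen after their values were seen. The comparison, the lists (23 pathway and 6 marker) and the rule were chosen with earlier results of these data known. Alternatives were a replicate block, separate spreads, a variance trend, array weights, a level filter, both scalings, the mean of all probe sets, only the arrays compared, stricter thresholds and each of 24 arrays left out. Promoters were read from RefSeq.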

Additional observations from a re-analysis of the deposited data

Results flagged for a closer look

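The line difference in parent cells was called for 1175 genes, and 73 genes had called responses of opposite sign in the 2 lines; both counts rest on the test of the difference between the lines. For 16 genes of the naming rule and 6 further list members the line difference itself differed between parent cells and cells labelled SLFN11 knockout, by a contrast of all 8 groups. That contrast contains the parent line difference, by which many of these genes were named, so their number was in part fixed by the choice. The parent value minus the knockout value (log2) was 3.03 for NUAK2, 1.97 for MYC and 2.17 for GADD45A, 2.15 for ATF3, 0.74 for TNFAIP3, 1.39 for HERPUD1, 1.13 for HSPA5, 1.5 for INSIG1, 1.16 for SOD2, 1.88 for CHAC1, 0.55 for SLC7A5 and 0.96 for MANF. It was -3.54 for DUSP4, -3.19 for NR4A2, -2.09 for EGR1, -1.75 for CD55, -1.6 for ID1, -2.38 for RGS1, -1.55 for BCL3, -2.37 for DUSP10, and -2.97 and -1.91 for the histone genes H2AC7 and H2AC14, which have near-identical copies. NUAK2 and DUSP4 had a CCRF-CEM group mean below 4, and RGS1 gave no signal above the lower quartile in DU145. H2AC7, measured by 1 probe set, had DU145 means of 2.12 with CPT and 2.30 in controls, also below the lower quartile.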

How the results depend on the processing

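Counts of calls that moved by over 1.5 times are given by setting. Ranges over left-out arrays are given for every count, also where it moved by less. Deviations of same-numbered CPT and control arrays correlated at -0.04 to 0.02 in DU145, against -0.04 to 0.06 between arrays of different number. In CCRF-CEM they correlated at 0.03 to 0.14, against -0.09 to 0.04, so some pairing by number there is possible. The main fit did not take the numbers as pairs. With the replicate number as a block, the parent minus knockout contrast called 78 genes. The other counts moved by less, with 831 line differences called in parent cells. With a separate spread for each line, 46 genes were opposite. With a variance trend and robust moderation the parent minus knockout contrast called 234. After the housekeeping shift the line difference was higher for 124 and lower for 1615, 623 were shared in direction and the knockout line difference was called for 228. With the mean of all probe sets the line difference was called for 2110 (874 higher, 1236 lower), 119 were opposite, the knockout line difference was called for 1020, 458 were called with 1 sign in both and the parent minus knockout contrast called 305. With only the arrays compared these were 308 (142 higher, 166 lower), 35 opposite, 45 in knockout and 75 in the contrast. At an adjusted p below 0.01 the line difference was called for 414 (185 higher, 229 lower), DU145 for 1612, CCRF-CEM for 1565, with 553 shared, 22 opposite, 138 in knockout, 42 with 1 sign in both and 41 in the contrast. With a change of at least 2-fold they were 438 (257 higher, 181 lower), 416, 434, 89, 2, 161 and 31. Leaving out 1 array gave 645 to 1287 for the line difference, 290 to 678 higher, 355 to 609 lower, 1961 to 2672 in DU145, 1868 to 2755 in CCRF-CEM, 782 to 839 shared, 44 to 76 opposite, 266 to 423 in knockout, 84 to 125 with 1 sign in both and 78 to 141 in the contrast; the lowest of the first 3 came without the third CPT array of CCRF-CEM. A stricter threshold passes fewer genes by construction, and the cause of the other moves was not tested. Among 38 genes named for size or opposite responses, 23 kept their call and direction in every setting other than left-out arrays and thresholds, and 31 with every array left out. With the mean of all probe sets the sign turned for GDPD4 (-0.1), MSH3 (-0.3), CFAP47 (0.1) and TM7SF2 (0.2), none of them called there. Signals near the lower quartile limit the size of changes that can be measured.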
